A study of Mus musculus with 11 samples.

Results

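The sodium pump and the proton potassium pumps share one design, and 5 of their subunit genes are described here in mouse granulosa cells, the cells that line the ovarian follicle and nourish the oocyte. Atp12a and Atp4a encode catalytic alpha subunits of proton potassium pumps, and Atp1b1, Atp1b2 and Atp1b3 encode beta subunits of the sodium pump. All 5 were present in both deposited tables, among 24809 gene IDs in the RNA table and 24541 in the table of H3K4me3, a histone mark found at active promoters, and all 5 passed the filter on low counts in each. The genes were chosen by name, with their RNA and H3K4me3 differences between 0 h and 48 h already known, so these differences are given as descriptions without a p-value. Cells came from C57BL/6 mice that were left untreated (0 h) or had been given equine chorionic gonadotropin (eCG) for 48 h, a hormone used to drive follicle growth, which the labels also call FSH. The RNA libraries, 3 at each time, are labelled as post natal day 21 in both groups and come from cells released by follicular puncture. The H3K4me3 libraries, 2 at each time, carry no age label. The series describes all libraries as biological replicates. The groups hold no untreated cells at 48 h, so eCG and elapsed time cannot be told apart.

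These pumps belong to the P-type ATPases, which pass a phosphate from ATP to themselves as they move ions. The sodium pump carries sodium out of the cell and potassium in, and its gradients drive many other transporters as well as the water that follows salt across cell layers. The gastric proton potassium pump acidifies the stomach, and its nongastric relative, encoded by Atp12a, works in epithelia such as those of the colon, prostate and airway. A catalytic alpha subunit needs a beta subunit to fold and to reach the membrane, and small FXYD proteins tune the finished pump.

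RefSeq promoter windows of GRCm38.p6, which run from 250 bases before a gene's start to 50 after it, were matched for 3 of the 5 genes. They are shown because these genes differed widely both in H3K4me3 level and in their number of CpG pairs, in which mammalian promoters of the CpG island type are rich. Capitals mark each CpG, and the sequences read 5′ to 3′ on the gene's own strand. The windows of Atp1b1 (chr1:164458306-164458605, minus strand), Atp1b3 (chr9:96364382-96364681, minus strand) and Atp4a (chr7:30711959-30712258, plus strand) follow.
Atp1b1: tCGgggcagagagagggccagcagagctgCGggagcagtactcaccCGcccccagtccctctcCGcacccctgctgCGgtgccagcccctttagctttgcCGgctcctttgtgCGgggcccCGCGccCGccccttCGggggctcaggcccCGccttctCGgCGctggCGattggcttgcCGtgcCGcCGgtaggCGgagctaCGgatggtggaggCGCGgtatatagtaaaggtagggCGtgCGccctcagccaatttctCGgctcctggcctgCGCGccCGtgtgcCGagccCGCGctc
Atp1b3: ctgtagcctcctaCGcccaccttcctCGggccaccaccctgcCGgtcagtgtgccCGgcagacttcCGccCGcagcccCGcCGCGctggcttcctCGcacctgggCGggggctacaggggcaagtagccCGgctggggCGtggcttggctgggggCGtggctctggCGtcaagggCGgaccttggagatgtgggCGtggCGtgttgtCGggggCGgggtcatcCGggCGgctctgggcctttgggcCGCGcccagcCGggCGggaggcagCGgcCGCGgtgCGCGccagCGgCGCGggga
Atp4a: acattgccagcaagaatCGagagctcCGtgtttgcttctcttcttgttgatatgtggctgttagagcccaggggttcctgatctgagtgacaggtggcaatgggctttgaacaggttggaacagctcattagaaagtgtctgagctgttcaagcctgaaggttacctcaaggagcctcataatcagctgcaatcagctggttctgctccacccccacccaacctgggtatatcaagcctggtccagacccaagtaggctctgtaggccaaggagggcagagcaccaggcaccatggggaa

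The Atp1b1 window holds 31 CpG pairs and that of Atp1b3 holds 34, more than in 89.4% and 92.3% of the 32851 promoter windows in the table. A second window of Atp1b3, at chr9:96363666-96363965, holds 39. The Atp4a window holds 2, and 14.1% of all windows hold fewer. Motifs were searched on both strands. GGGCGG, the GC box, occurred 6 times in the window of Atp1b3 shown and 2 times in that of Atp1b1, and is found in 35.7% of all windows. CCAAT occurred 2 times in the Atp1b1 window, against 37.4% of windows that hold it at least once. TGACG, a part of the cAMP response element TGACGTCA, occurred 1 time in each Atp1b3 window (20.8% of all windows). None of the 4 windows held TGACGTCA itself, AAGGTCA (a core site of NR5A1) or TATAAA, which 1.79%, 4.72% and 13.6% of all windows hold. A match to letters is a description and not a measured binding site.

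Library totals were 15050013 to 18511429 counts at 0 h and 12013849 to 26343971 at 48 h for RNA, and 11989769 to 15124233 and 17137463 to 17968033 for H3K4me3. Levels are given as normalised read counts (CPM, counts per megaread of the library) after TMM scaling, which allows for differences in library composition. Summed levels of 10 granulosa markers were 12700 to 16800 CPM at 0 h and 31600 to 31700 CPM at 48 h, and none of the 10 was at 0 in all libraries. Most of the sum came from Inha and Inhba, with means of 16836 and 10954 CPM at 48 h. By edgeR's test 7 of the 10 were called higher and 1 lower, Amh, whose mean went from 900 to 346 CPM. Library 1 at 48 h stood apart in markers of other cells. All 10 endothelial markers rose at 48 h by edgeR's test, and in that library they summed to 656 CPM, against 209 and 258 CPM in the other 48 h libraries and 106 to 112 CPM at 0 h, and its 8 theca and interstitial markers summed to 4570 CPM, against 1770 to 2260 CPM in the other 5 libraries. Ranges at 0 h and at 48 h were 296 to 323 and 198 to 492 CPM for 8 smooth muscle and pericyte markers, 108 to 123 and 41.6 to 113 CPM for 10 oocyte markers, 184 to 302 and 149 to 258 CPM for 8 immune markers, 151 to 238 and 161 to 244 CPM for 7 surface epithelium markers, and 3760 to 5390 and 12900 to 18100 CPM for 8 luteal markers. Of 7 red blood cell markers the 4 globin genes were listed at 0 in all libraries, and the others summed to 68.4 to 129 CPM at 0 h and 164 to 685 CPM at 48 h. By edgeR, 0 of 8 theca and interstitial markers were called higher and 2 lower. Calls higher and lower were 2 and 0 of 8 smooth muscle and pericyte markers and 0 and 3 of 9 oocyte markers tested. They were 0 and 0 of 7 immune, 0 and 1 of 7 surface epithelium, 8 and 0 of 8 luteal and 3 and 0 of 3 red blood cell markers tested. The part of these markers in the pump values was not tested, and in bulk samples more cells of a type and more RNA per cell cannot be told apart.

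Atp12a, the nongastric proton potassium pump, went from nearly no reads to a clear signal. Its RNA counts in 0 h libraries 1, 2 and 3 were 1, 0 and 1, all under the 3 counts used here as a floor. At 48 h the counts were 320, 163 and 71, or 24.5, 6.52 and 6.18 CPM. Every 48 h library lay above every 0 h library, and library 1 was far above the other two. The depth-corrected ratio of the pooled counts was 306 (95% interval 84.4 to 2530, counting error only, from 554 and 2 counts). Taken singly, 48 h libraries 1, 2 and 3 gave ratios to the same 2 counts of 672, 178 and 169, with lower limits of 184, 48.6 and 45.2. The fitted log2 fold was 8.14, and 7.19 without 48 h library 1. Both rest on the 2 counts seen at 0 h, together with a small count that the fit adds to every library. With these 0 h counts, Atp12a passed the filter on low counts through its 48 h libraries alone. The gene lies at chromosome 14, 56364669 to 56388551 (gene ID 192113), and the nearest other annotated gene, Gm32454, is 3099 bp away.

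Atp4a, the gastric alpha subunit (gene ID 11944; chromosome 7, 30712209 to 30725534), stayed at a low level throughout. Its RNA level was 1.86, 1.53 and 0.949 CPM in the 0 h libraries and 4.37, 2.24 and 2.96 CPM at 48 h, from 18 to 31 and 34 to 57 counts. The groups did not overlap, although the lowest 48 h library and the highest 0 h library lay close together. The mean went from 1.45 ± 0.463 to 3.19 ± 1.08 CPM (SD, n = 3 per group). This is a log2 fold of 1.13 ± 0.36 (SE). The pooled counts, 78 and 147, gave a ratio of 2.08 (95% interval 1.57 to 2.78 for counting error only), and without 48 h library 1 the log2 fold was 0.83.

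The sodium pump beta subunits were abundant at both times and differed far less. Atp1b2 (gene ID 11932; chromosome 11, 69599728 to 69605978), also known as an adhesion molecule of glia, had 543, 620.5 and 639 CPM at 0 h and 892, 889.7 and 807 CPM at 48 h. The groups were well separated, with means of 601 ± 50.9 and 863 ± 48.4 CPM and a log2 fold of 0.52 ± 0.11. Atp1b3 (gene ID 11933; chromosome 9, 96332655 to 96364431), a widely expressed beta subunit, had 265, 216 and 234 CPM at 0 h and 322.5, 312 and 309 CPM at 48 h. Again every 48 h library was above every 0 h library, and the log2 fold was 0.40 ± 0.10.

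Atp1b1 (gene ID 11931; chromosome 1, 164437099 to 164458355), the beta subunit of most tissues, had 89.3, 58.7 and 71.9 CPM at 0 h and 97.2, 86.4 and 92.7 CPM at 48 h. Here the groups overlapped, because 0 h library 1 lay above 48 h library 2. The means were 73.3 ± 15.4 and 92.1 ± 5.38 CPM and the log2 fold was 0.33 ± 0.14, or 0.50 without 0 h library 1. Atp1b1 shares 202 bp with Nme7 at 1 end, where reads of the 2 genes may not be told apart if strand was not used.

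**Figure D1:**
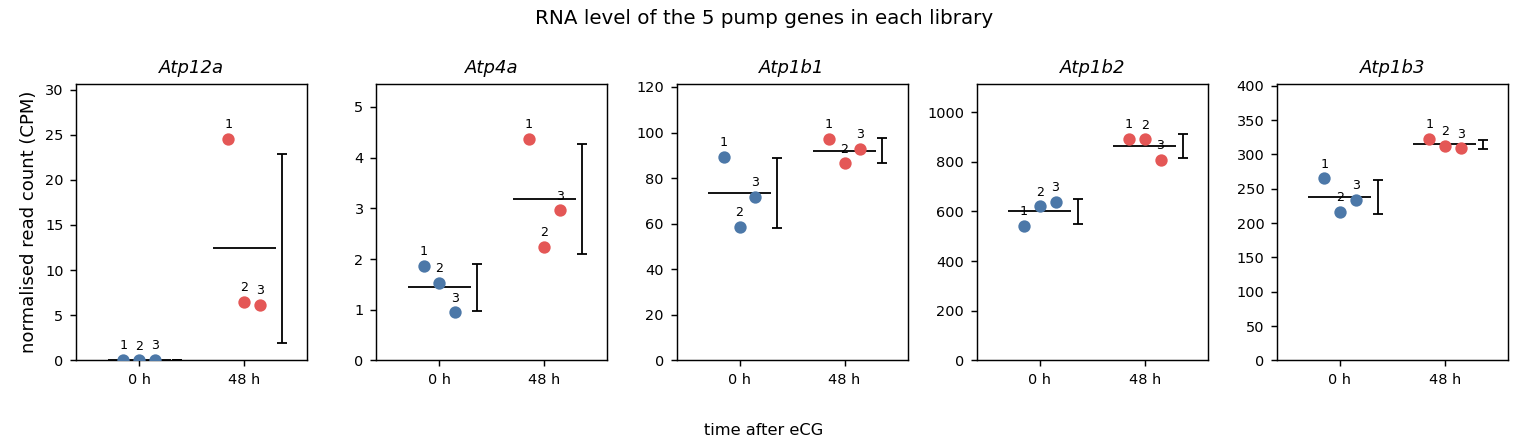
Normalised RNA read count (CPM, linear axes from 0, one scale per gene) of the 5 pump genes at 0 h and 48 h after eCG; each point is a library with its replicate number, lines are means and bars are SD over n = 3. Atp12a is near 0 in all 0 h libraries and highest in 48 h library 1. The 3 beta subunits differ by far smaller folds, without overlap between times for Atp1b2 and Atp1b3 and with overlap for Atp1b1.

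Of the 5 genes, 4 were called higher at 48 h by edgeR's quasi-likelihood test at an adjusted p under 0.05 and none lower, where 16.0% of all genes tested were called higher and 15.8% lower. With an unadjusted p under 0.05 the counts were 5 higher and 0 lower, and DESeq2 called 4 higher and 0 lower. Over all genes tested by edgeR, 6256 of 14401 had an unadjusted p under 0.05 in either direction. DESeq2 called 2558 higher and 1960 lower of 15393 genes. Groups did not overlap for 4 of the 5, against 47.9% of all genes tested. The median log2 fold of the 5 was 0.52, and that of all genes tested was -0.03. Since these differences were known when the genes were chosen, nothing is read from the counts. With library size as the only scaling, which moved the median of all genes to -0.20, the log2 folds of Atp1b1, Atp1b2 and Atp1b3 were 0.16, 0.35 and 0.23, and 2 of the 5 genes were called. The count was 2 without 0 h library 2 or 0 h library 3, 3 without 48 h library 1 or 48 h library 3, and 5 without 0 h library 1. These counts too are descriptions, and nothing is read from them.

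The mix of the 3 beta subunits was compared within libraries, where scaling between libraries plays no part. Counts are not divided by transcript length, so the percentages compare 1 subunit between libraries and not 1 subunit with another. Atp1b2 took 60.5% of the summed beta counts in 0 h library 1 and 66.8% to 69.3% in the other 5 libraries. Atp1b3 took 29.5% in 0 h library 1 and 24.1% to 25.6% elsewhere, and Atp1b1 took 9.95% against 6.55% to 7.67%. The 48 h libraries lay inside or close to the range of 0 h libraries 2 and 3 for each subunit, so that the groups overlapped for all 3, and 0 h library 1 stood apart from the other 5 libraries.

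**Figure D2:**
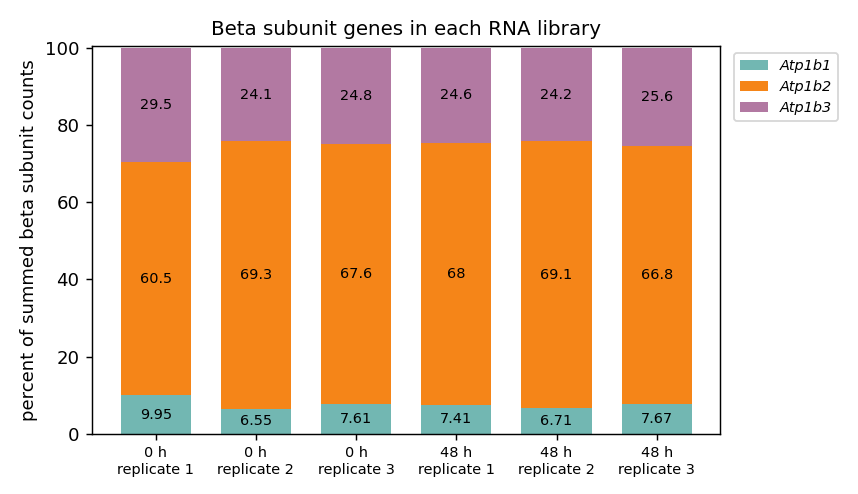
Percent of the summed read counts of Atp1b1, Atp1b2 and Atp1b3 that each gene took in each of the 6 RNA libraries, as stacked bars from 0 to 100 (counts not divided by length). Library 1 at 0 h has the smallest part of Atp1b2, 60.5%, and the other 5 libraries lie between 66.8% and 69.3%.

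H3K4me3 at the same genes showed little difference between times, also at Atp12a. The mark was counted per gene, in a window whose position and width no label or header states. The Atp12a count was 6.20 and 6.65 CPM at 0 h and 5.22 and 5.73 CPM at 48 h, so the RNA gain was accompanied by values slightly below those at 0 h (log2 fold -0.23 ± 0.20). Atp4a had 1.34 and 1.41 CPM at 0 h and 1.26 and 1.12 CPM at 48 h, from 17 to 21 counts per library (log2 fold -0.21 ± 0.37). At the beta subunits the counts were high in all libraries. Atp1b1 had 68.6 and 64.8 CPM at 0 h and 73.4 and 68.8 CPM at 48 h (log2 fold 0.09 ± 0.07), with the 48 h libraries just above both 0 h libraries. Atp1b2 had 84.6 and 88.4 CPM and then 98.3 and 99.0 CPM (log2 fold 0.19 ± 0.07), the widest separation of the 5. Atp1b3 had 111 and 116 CPM and then 113 and 110 CPM, which overlapped (log2 fold -0.02 ± 0.07).

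None of the 5 genes was called in H3K4me3 after Benjamini-Hochberg adjustment in edgeR's quasi-likelihood fit, where 6.37% of all genes tested were called higher and 2.08% lower. At an unadjusted p under 0.05 there was 1, in the direction of a higher count at 48 h, and DESeq2 called 0. Over all genes, in either direction, 5050 of 24476 had an unadjusted p under 0.05, and DESeq2 called 864 of 15486. Groups did not overlap for 4 of the 5, 2 in each direction, against 49.2% of all genes tested. The median log2 fold of the 5 was -0.02, and that of all genes tested was near 0 (-0.00135). With n = 2 per group, the SE rests on variation shared across genes.

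**Figure D3:**
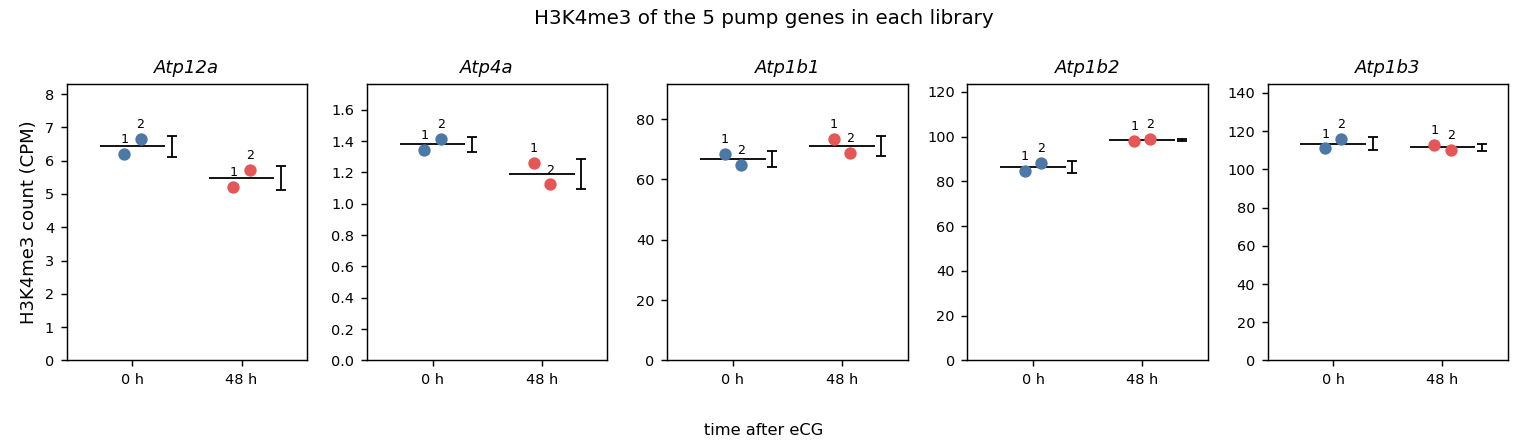
H3K4me3 count (CPM, linear axes from 0, one scale per gene) of the 5 pump genes at 0 h and 48 h after eCG; points are libraries with replicate numbers, lines are means and bars are SD over n = 2. Atp12a and Atp4a lie slightly lower at 48 h, Atp1b1 and Atp1b2 slightly higher, and Atp1b3 overlaps.

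The level of the mark was set beside genes with no RNA. Among 5129 genes with 0 RNA counts in all libraries, the median H3K4me3 count was 1.56 CPM, the 90th percentile 4.37 CPM and the 95th percentile 17.5 CPM, with a Spearman correlation of 0.00746 between count and gene length across these genes. Averaged over both times, Atp4a had 1.28 CPM, above 24.1% of these silent genes, and Atp12a had 5.95 CPM, above 91.6% of them. Atp1b1, Atp1b2 and Atp1b3, at 68.9, 92.6 and 113 CPM, were above 97.9%, 98.7% and 99.2%. Among all genes with H3K4me3 counts, silent or not, Atp4a was above 9.66% and Atp12a above 41.3%. Atp1b1, Atp1b2 and Atp1b3 were above 73.5%, 84.6% and 91.2% of all genes. The 3 promoter windows were shown because these genes differed in level and CpG count, so nothing is read from the order that the 2 share. Over genes with a single window in the promoter table, the median H3K4me3 count was 1.58 CPM for 4712 genes with under 5 CpG pairs (10th to 90th percentile 1.16 to 4.43) and 69.7 CPM for 7111 genes with 15 or more (12.4 to 127). Between these, 3640 genes with 5 to 14 pairs had a median of 9.16 CPM and a wide spread (1.27 to 78.3). Atp4a falls in the class under 5 pairs and Atp1b1 in that of 15 or more. Both were shown because of these values, so nothing is read from their place in a class. Atp1b3 has 2 windows and so is in none of these classes, and its 113 CPM is well above the median of 69.7 CPM.

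Further genes of the same pumps were counted from a list of 9, made up of the beta subunit genes Atp4b and Atp1b4 and the 7 FXYD proteins, of which 4 passed the filter in RNA. This list was chosen with earlier results of these data known, so nothing is read from the counts, and adjusted p-values of its genes are descriptions. In RNA 2 of the 4 rose, 0 fell and 2 did not pass edgeR's quasi-likelihood test, beside 16.0% higher and 15.8% lower over all genes tested. At an unadjusted p under 0.05 there were 2 higher and 0 lower, and DESeq2 called 2 higher and 0 lower, beside the numbers for all genes given above. With library size as the only scaling, and also without 48 h library 1 or without 48 h library 2, Atp4b alone was called. With no filter, and without 0 h library 3, Fxyd4, which the filter left out, was called lower, and without 0 h library 3 the rise of Fxyd6 was not called. Fxyd4, a modulator known as CHIF, had 10, 33 and 7 counts at 0 h and 3 counts in each 48 h library. The median log2 fold of the 4 was 0.55. In H3K4me3 0 of the 9 were called by edgeR, with 0 at an unadjusted p under 0.05 and 0 by DESeq2.

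Atp4b, the beta subunit of the gastric proton potassium pump (gene ID 11945; chromosome 8, 13386209 to 13396778), had 0.707, 0.543 and 0.264 CPM at 0 h and 7.20, 5.60 and 6.53 CPM at 48 h. The 48 h libraries lay close together and far above the 0 h libraries. The log2 fold was 3.67 ± 0.34 (adjusted p = 2.84e-04 by edgeR, range over alternatives 8.93e-18 to 0.00236), and the pooled counts of 27 and 309 gave a ratio of 12.7 (95% interval 8.53 to 19.5, counting error only). The list was chosen with earlier results of these data known, so the adjusted p is a description. Atp4b had 11, 11 and 5 counts at 0 h and passed the filter through its 48 h libraries. Its catalytic partner Atp4a had a ratio of 2.08. The log2 ratio of Atp4a to Atp4b counts accordingly was 1.40, 1.49 and 1.85 in the 0 h libraries and -0.72, -1.32 and -1.14 at 48 h. H3K4me3 at Atp4b was 1.15 and 0.748 CPM and then 1.32 and 1.68 CPM, from 9 to 30 counts, and did not pass (log2 fold 0.63 ± 0.39, adjusted p = 0.378 by edgeR).

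Among the FXYD proteins, Fxyd6 rose from 23.6 ± 1.96 to 30.2 ± 3.11 CPM (log2 fold 0.36 ± 0.11, adjusted p = 0.0376 by edgeR), a call that was lost under 6 of 11 alternatives, with a highest adjusted p of 0.202. Fxyd5, also called dysadherin, had 3.15, 6.86 and 2.95 CPM at 0 h and 10.9, 5.60 and 5.39 CPM at 48 h. The groups overlapped through 0 h library 2, and the log2 fold was 0.74 ± 0.39 (adjusted p = 0.182 by edgeR, but 0.039 without 0 h library 2). Fxyd1, known as phospholemman, had 15.5, 16.4 and 19.0 CPM at 0 h and 19.3, 10.5 and 14.7 CPM at 48 h. Here too the groups overlapped, with a log2 fold of -0.21 ± 0.21 (adjusted p = 0.476 by edgeR) that turned to 0.02 without 48 h library 2.

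**Figure D4:**
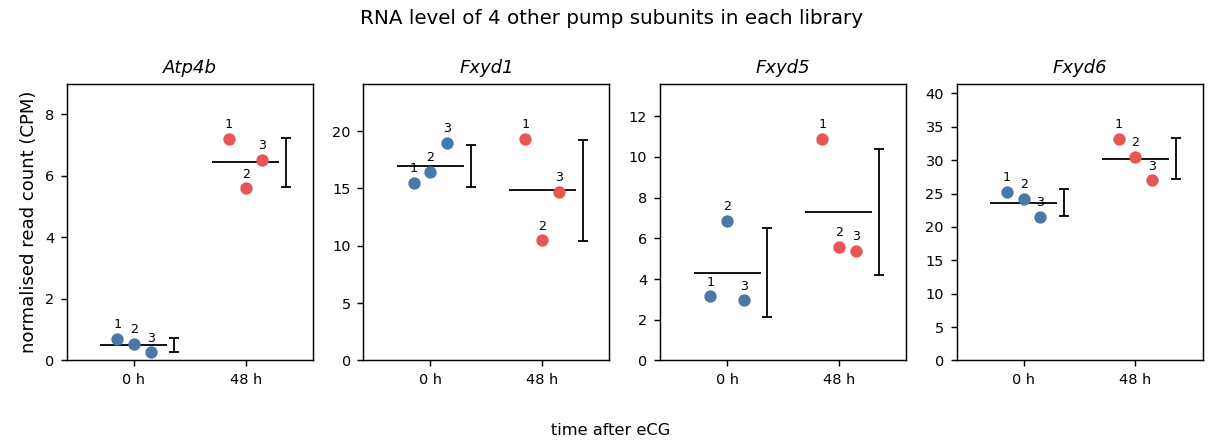
Normalised RNA read count (CPM, linear axes from 0, one scale per gene) of Atp4b, Fxyd1, Fxyd5 and Fxyd6 at 0 h and 48 h after eCG; points are libraries with replicate numbers, lines are means and bars are SD over n = 3. Atp4b is separated by far more than its spread, and Fxyd1 and Fxyd5 overlap between times.

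**Figure D5:**
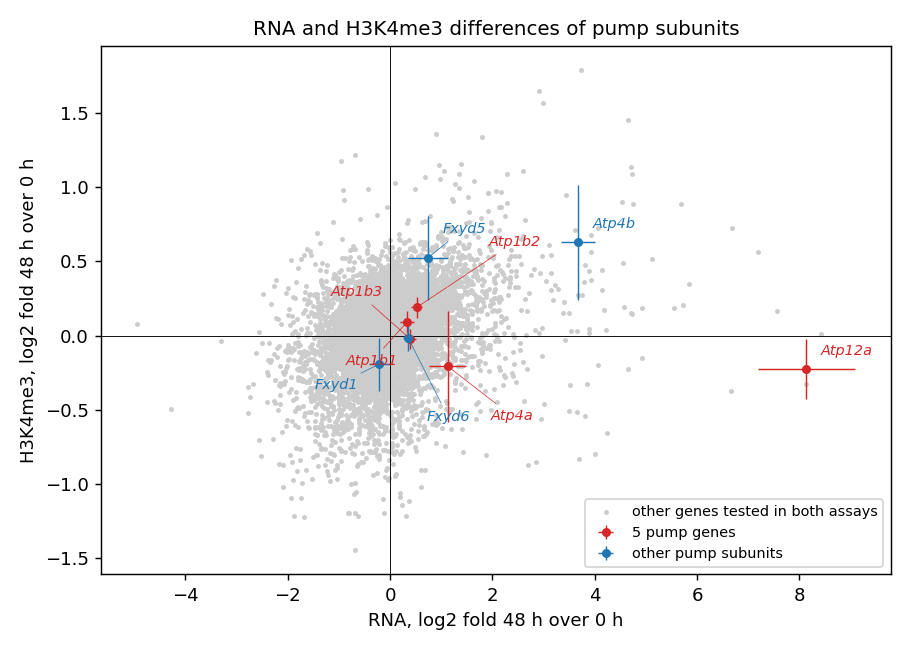
Log2 fold at 48 h over 0 h in RNA (horizontal) against H3K4me3 (vertical) for the 5 pump genes (red), the other subunits tested in RNA (blue) and all other genes tested in both assays (grey); bars are SE. Atp12a lies at 8.14 in RNA and -0.23 in H3K4me3, and Atp4b at 3.67 and 0.63.

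Genes that act around the pumps were counted by list, beside the shares of 16.0% higher and 15.8% lower over all genes tested in RNA. Counts by unadjusted p, by DESeq2 and in H3K4me3 stand beside the numbers for all genes given above. These lists too were chosen with earlier results known, so nothing is read from the counts, and adjusted p-values are descriptions. Of 15 pump interactors and kinase regulators, 13 were tested in RNA, with 2 higher and 3 lower. Without 48 h library 2, and likewise without 48 h library 3, 1 was higher and 2 were lower. Sgk1, a kinase that raises sodium transport, rose from 48.6 ± 18.2 to 113 ± 37.6 CPM (log2 fold 1.21 ± 0.28, adjusted p = 0.0124 by edgeR). Wnk3, a kinase that acts on cation chloride cotransporters, rose by a log2 fold of 0.71 (adjusted p = 0.0174, lost under 3 of 11 alternatives). Nkain1, whose protein binds the beta subunit of the sodium pump, fell from 18.4 ± 0.377 to 9.09 ± 0.244 CPM (log2 fold -1.02 ± 0.11, adjusted p = 5.12e-04 by edgeR). H3K4me3 did not pass at any of these 3.

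Among 28 other P-type ATPases tested in RNA, 6 rose and 2 fell by edgeR, with a median log2 fold of 0.26. DESeq2 called 11 higher and 2 lower, library size as the only scaling gave 2 and 3, and without 48 h library 1 the counts were 5 and 5. Without 0 h library 2, and also with no filter, they were 3 and 2. Atp2b3, a calcium pump of the plasma membrane, fell by 1.89 on the log2 scale, from 10.6 ± 1.56 to 2.91 ± 1.26 CPM. The flippases Atp10a and Atp11a, which move lipids between membrane leaflets, rose by log2 folds of 1.04 and 0.57, and the lysosomal Atp13a2 rose by 0.85. H3K4me3 was called higher at these last 3 as well, by 0.40, 0.38 and 0.37, but each call was lost without 0 h library 1 (adjusted p 0.0632, 0.295 and 0.229), and that of Atp11a also without 48 h library 1 (0.114). The adjusted p in RNA, by edgeR, was 0.00188 for Atp2b3, 8.84e-04 for Atp10a, 0.0254 for Atp11a and 0.00240 for Atp13a2, and the call of Atp11a was lost under 3 of 11 alternatives.

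The V-type proton ATPase, a separate pump that acidifies lysosomes, had 11 of 21 tested subunits and accessory genes higher in RNA and 2 lower, with a median log2 fold of 0.30. With library size as the only scaling 4 rose and 4 fell, and without 0 h library 2 there were 4 higher and 2 lower. Atp6v0e2 (1.04), Atp6v0e (0.65) and Atp6ap2 (0.77) rose on the log2 scale, and Atp6v1g2, which overlaps Nfkbil1, fell by 0.75. In H3K4me3 0 of 25 were called higher and 1 lower by edgeR, with 4 and 2 at an unadjusted p under 0.05 and 0 and 0 by DESeq2.

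Ion transporters and channels that use the gradients of the pumps moved both ways. Of 28 sodium, potassium, chloride and proton transporters tested in RNA, 6 rose and 1 fell. Slc12a7, a potassium chloride cotransporter, rose from 264 ± 32.7 to 699 ± 202 CPM (log2 fold 1.40 ± 0.20, adjusted p = 0.00144 by edgeR), together with H3K4me3 (log2 fold 0.43 ± 0.07, adjusted p = 2.62e-05). Slc12a8, of the same family, rose by a log2 fold of 3.88 ± 0.47, Slc4a1, an anion exchanger and 1 of the red blood cell markers, by 2.69, and Slc4a11 fell by 1.16. Of 22 potassium channel genes tested 4 rose and 4 fell. Kcne2, the channel subunit that works beside the proton pump in the stomach, rose at 48 h (log2 fold 1.17 ± 0.11, adjusted p = 3.39e-04 by edgeR), and Kcnk3 rose by 1.31, while Kcnk2 and Kcnq5 fell by 1.54 and 1.32 on the log2 scale. H3K4me3 was called higher at Kcne2 (adjusted p = 0.0215) and lower at Kcnq5 (0.0417), calls that were lost under 7 and 6 of 9 alternatives. Of 6 aquaporins tested in RNA, 0 rose and 1 fell by edgeR, with 0 and 2 at an unadjusted p under 0.05 and 0 and 1 by DESeq2. That gene was Aqp5, which fell by 0.94 on the log2 scale (adjusted p = 0.0196, lost under 3 of 11 alternatives). Without 0 h library 1, 0 h library 3 or 48 h library 2 no aquaporin was called, and without 48 h library 1 there were 3 lower. Of the 20 genes named from these lists, 6 were also called in H3K4me3, all in the direction of their RNA. Over all 4578 genes called in RNA and tested in H3K4me3, 18.6% were called in H3K4me3, and 86.4% of these in the direction of their RNA. The sets are unlike, since the 20 were picked for the largest RNA folds and a mean of at least 5 CPM.

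The RNA profiles nearest to those of the 5 genes were sought among 11287 genes whose mean reached 5 CPM, by the root mean square difference of log2(CPM + 1) over the 6 libraries after centring each gene. Pik3c2g and Hsd17b7 were nearest to Atp12a, each with a difference of 0.209, and Pex10 (0.107) and Mpc2 (0.128) to Atp4a. Mean levels at 0 h and 48 h were 0.0379 and 12.3 CPM for Pik3c2g and 33.1 and 382 CPM for Hsd17b7. Those of Atp12a were 0.0390 and 12.4 CPM. The added 1 compresses folds from a level near 0, so Hsd17b7 lies near Atp12a although its fold is far smaller. Auh (0.0332) and Vkorc1 (0.0589) were nearest to Atp1b1, Mgat5 (0.0382) and Lrp5 (0.0437) to Atp1b2, and Spcs2 (0.0167) and Fuca1 (0.0225) to Atp1b3. Distances are smaller for the beta subunits than for Atp12a, whose profile spans a far wider range.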

How the data were processed

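RNA and H3K4me3 ChIP-seq counts per Entrez gene ID were used as the authors deposited them: raw counts, whole numbers with no normalization in the files. Per the submitters' processing notes, the tools were Trimmomatic, Bowtie2 (2.2.9), MACS2 (2.2) and ChIPseeker (1.18.0) for ChIP-seq, and STAR, kallisto, sleuth, Picard and FastQC (0.11.5) for RNA, on build mm10. Which program made the counts, whether strand was used and which window H3K4me3 was counted in were not stated. Input DNA was not analysed here. RNA columns matched sample titles; H3K4me3 columns were tied to their group, and the number in the column name only names a library. Cell type marker lists are given as sums and as counts of edgeR calls, with mean levels of a few granulosa markers. Symbols and coordinates came from a RefSeq table of GRCm38.p6, which matched 24742 of 24809 and 24472 of 24541 IDs.

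Each assay was fitted over all genes that passed filterByExpr with edgeR 4.0.16 (R 4.3.3; quasi-likelihood test, TMM, no covariate, Benjamini-Hochberg adjustment, calls at adjusted p under 0.05). SE is the log2 fold divided by the root of the test statistic. The fits were tested on simulated data. Alternatives were DESeq2 1.42.0, DESeq2 size factors, library size only, no filter, the replicate number as a block, and leaving out each library. Replicates differed by 5.16 to 38.5 (RNA) and 1.69 to 4.00 (H3K4me3) in chi-square per degree of freedom, so each was counted. P-values set each difference against the spread between these libraries, which the fit estimates in part from variation shared across genes.

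The members and lists were chosen with earlier results of these data known. Named genes were the 5 members, the other listed pump genes tested in RNA (some subunit genes are not reported here), up to 4 called genes with the largest folds and at least 5 CPM from each other list, and the 2 nearest profiles (mean at least 5 CPM) of each member with a mean of at least 1 CPM.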

Additional observations from a re-analysis of the deposited data

How the results depend on the processing

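The number of genes called in RNA was 4585, with 2882 (without 0 h replicate 3) to 5345 (without 48 h replicate 1) when 1 library was left out. Without 0 h replicate 2 it was 2956. In H3K4me3 2066 genes were called, 864 with DESeq2 and 280 (without 0 h replicate 1) to 2764 (without 48 h replicate 2) when 1 library was left out, with 1254 without 0 h replicate 2 and 1181 without 48 h replicate 1. Higher calls made up 50.2% of all calls in RNA and 75.4% in H3K4me3, but 26.8% and 52.3% where only library size was scaled, and 56.1% in H3K4me3 without 0 h replicate 1. Of the other pump genes, 2 were called in RNA, 1 with library size as the only scaling and 1 to 2 when 1 library was left out, and 0 in H3K4me3 under each of 9 alternatives.

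Whether the replicate numbers pair the samples could not be decided. Deviations from the group means correlated at -0.212, -0.149 and -0.127 between same-numbered RNA libraries and at 0.0248 in H3K4me3. Centring such small groups constrains these correlations, and in H3K4me3 every pair gives the same value up to its sign. With the replicate block, 3312 genes were called in RNA and 1280 in H3K4me3, and in RNA 3 of the 5 pump genes, 1 of the other pump genes, 4 other P-type ATPases in place of 8 and 7 V-type ATPase genes in place of 13.

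The RNA log2 folds of the 5 pump genes kept their sign under all 11 alternatives. Their ranges were 7.19 to 8.56 for Atp12a, 0.83 to 1.37 for Atp4a, 0.16 to 0.50 for Atp1b1, 0.35 to 0.59 for Atp1b2 and 0.23 to 0.49 for Atp1b3. In H3K4me3 the sign of Atp1b3 turned under 1 of 9 alternatives and those of the other 4 under none. Among the other pump genes, the RNA log2 fold turned for Fxyd1 without 48 h replicate 2 (0.0248, otherwise down to -0.457). That of H3K4me3 turned for Fxyd6 without 48 h replicate 2 (0.0153, against -0.0586 without 48 h replicate 1 and -0.0713 where only library size was scaled). The causes were not tested. Depth limits Atp12a at 0 h and the H3K4me3 of Atp4a and Atp4b, where a few counts set each value.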
